A study of Homo sapiens and Mus musculus with 21 samples.

Results

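The sites described here are m6A positions whose 5-letter motif has G directly before the methylated adenosine and A or T before that G, called A/T-led G sites below. They were taken from 5 deposited lists of single DRACH positions by the motif written beside each position, and no measured value entered the choice. They made up 65386 of 207671 entries over the 5 lists, with 6 of the 18 motifs present in the files. Sites starting with A are called A-led and have the motif AGAC followed by any base but G. Sites starting with T are called T-led and have TGAC followed by any base but G. Motifs are written as DNA, so that T stands for U in the RNA.

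The study deleted PCIF1 in HEK293T, a transformed line of human kidney origin, and mapped methylated adenosines by miCLIP. The lists came from 2 PCIF1 knockout libraries (KO 1 and KO 2) and 1 unmodified HEK293T library (WT), and from 2 libraries of wild-type mouse embryonic fibroblasts (MEF 1 and MEF 2). No drug treatment separates these 5 libraries. The labels do not say whether KO 1 and KO 2 are separate clones or whether replicate libraries came from separate cultures, and there is 1 WT library, so a KO and WT difference compares libraries and not genotypes. The other 16 libraries of the series were not used here.

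m6A is the most common internal modification of mRNA. It is written by a complex of METTL3, the catalytic subunit, and METTL14, its RNA-binding partner, within the consensus DRACH, in which D is any base but C, R is a purine and H is any base but G. GGACU is the best known form of this consensus. PCIF1 writes m6Am instead, on the cap-adjacent adenosine at the start of the transcript, and does not need a DRACH sequence. In miCLIP an antibody against N6-methyladenosine is crosslinked to RNA, and reverse transcription leaves substitutions beside the methylated base. The antibody also binds m6Am.

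Each deposited entry gives the count of substituted reads and the count of reads covering the position. The ratio of these counts is called the substitution share. It is a property of crosslinking and library as well as of methylation, and it is not a stoichiometry. Every listed position had at least 2 substituted reads and at least 4 reads, so a position with few reads could be listed only at a high share. No list held a position with 2 substituted reads and more than 28 reads, and the smallest share in any list was 1.002%, so weakly substituted positions are missing at every depth. Summed over all listed positions, the reads ranged between 2424583 (MEF 1) and 3638158 (KO 2), and the depth of the whole libraries was not analysed here. Intervals below are exact 95% binomial intervals and cover counting error only.

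Bases around member sites could be read where a site fell inside a RefSeq promoter window of GRCh38.p14, and the motif stood at the listed place at 487 of 487 such HEK293T positions of any motif. The listed base was position 4 of the motif, the C that follows the methylated adenosine at position 3. The first 5 sequences below are the member sites in these windows that all 3 HEK293T lists held. They show the A-led and the T-led form, the motif is in capitals, and each is written 5′ to 3′ on the transcribed strand.
USP1, chr1:62437029-62437057, plus strand: acgggggtcctgAGACTgaggaaaacgcg
LINC02593, chr1:919702-919730, minus strand: cggcaccctctcTGACAttgggtgggaga
LINC02593, chr1:919688-919716, minus strand: acattgggtgggAGACTctgggagccgag
SLMAP, chr3:57757045-57757073, plus strand: caggggcgatgcAGACTgtcccgccggcc
HCFC1R1, chr16:3023974-3024002, minus strand: ccacgccctcagAGACTcctcccctgtcg
ZRANB2, chr1:71081017-71081045, minus strand: ttcctcctgtgaAGACAtagctgcgggtg
MED24, chr17:40054393-40054421, minus strand: aagtgagcttctTGACAagtgccaaaatg
The USP1 site, just upstream of the RefSeq start of a deubiquitinase gene, had 6 of 55 reads substituted in KO 1 and 21 of 106 in KO 2, against 13 of 78 in WT. The 2 LINC02593 sites lie close together just upstream of the RefSeq start of this noncoding gene, and their printed windows overlap. The T-led one had 9 of 93 reads substituted in KO 1 and 10 of 92 in KO 2, against 8 of 72 in WT, and the A-led one 5 of 123 and 7 of 131 in KO 1 and KO 2, against 6 of 95 in WT. Both were therefore listed in every HEK293T library. ZRANB2 and MED24 are shown because they were listed in WT and in neither KO list, and they are taken up with the m6Am regions below.

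A/T-led G sites were a little under 1 list entry in 3 in every library. They numbered 12693 of 40768 entries in KO 1 (31.1%), 14798 of 47644 in KO 2 (31.1%), 13635 of 43663 in WT (31.2%), 11867 of 37141 in MEF 1 (31.95%) and 12393 of 38455 in MEF 2 (32.2%). The mean was 31.5% ± 0.532 (SD, n = 5 libraries), and KO 1, KO 2 and WT differed by less than this SD. Double-G sites, which have GG before the methylated adenosine and include GGACT, made up 34.8% ± 0.723, and sites with A directly before it 33.7% ± 1.20. The series thus split into 3 classes of like size.

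A-led sites outnumbered T-led sites in every list. There were 8309 A-led and 4384 T-led sites in KO 1, 9625 and 5173 in KO 2, 8704 and 4931 in WT, 7818 and 4049 in MEF 1, and 8086 and 4307 in MEF 2. A was therefore the leading base of 65.5% and 65.0% of members in KO 1 and KO 2, of 63.8% in WT, and of 65.9% and 65.2% in MEF 1 and MEF 2. WT was the lowest of the 5, and its counting interval (63.0% to 64.6%) met the lower end of that of KO 1 (64.6% to 66.3%).

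T was the commonest base at the fifth position, and AGACT the commonest motif. AGACT numbered 4532 sites in KO 1, 5109 in KO 2, 4670 in WT, 4329 in MEF 1 and 4465 in MEF 2, or 35.4% ± 0.967 of members (SD, n = 5). AGACA followed with 3036, 3621, 3234, 2801 and 2933 sites in the same order of libraries (23.9% ± 0.353), and TGACT with 2714, 3050, 2891, 2452 and 2572 (20.9% ± 0.347). The same order of motifs held in all 5 lists, human and mouse. TGACA made up 11.6% ± 0.501 and AGACC 5.82% ± 0.178 of members. TGACC was the rarest, with 265, 370, 367, 275 and 293 sites (2.39% ± 0.224).

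**Figure D1:**
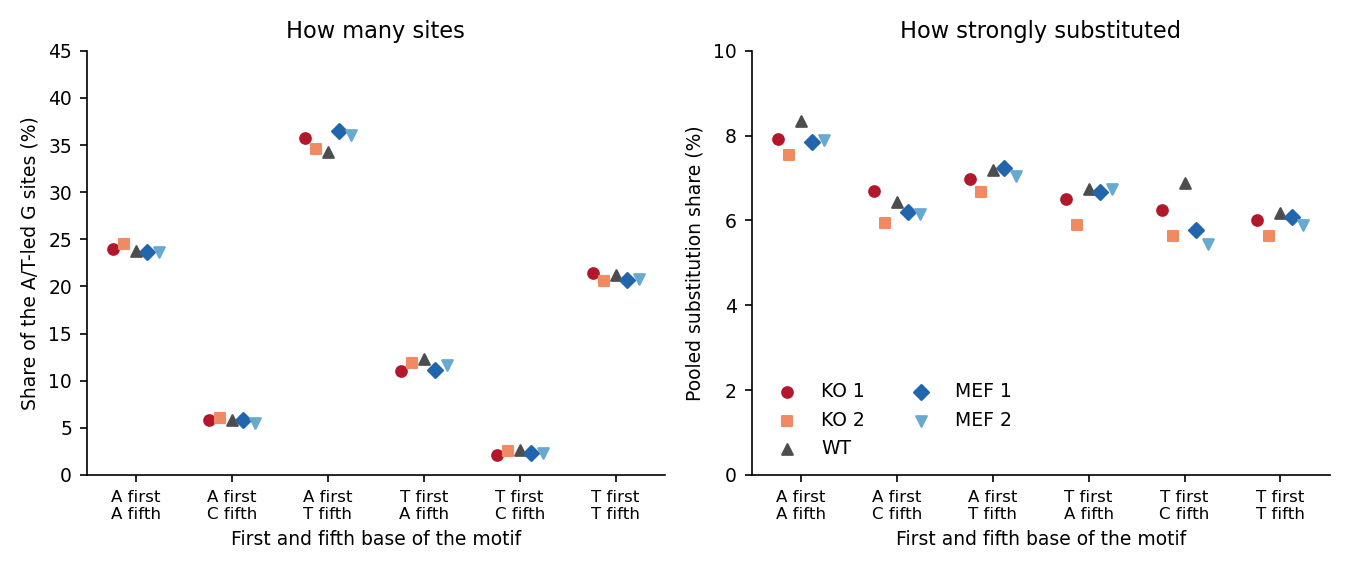
The 6 member motifs by the first and the fifth base in each library (1 point per library, no error bars): left, share of the A/T-led G sites in percent; right, pooled substitution share in percent, both axes starting at 0. A-led motifs ending in T hold 34.3% to 36.5% of members in every library, and motifs ending in A lead on the right among A-led sites, between 7.54% and 8.36%.

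The fifth base differed between motif classes more than between libraries. T stood there in 57.1% of members in KO 1, 55.1% in KO 2, 55.5% in WT, 57.1% in MEF 1 and 56.8% in MEF 2, against 39.3%, 38.9%, 39.4%, 40.4% and 41.0% of double-G sites in the same libraries. The 2 classes did not overlap over libraries, and the difference was 16.5 percentage points ± 0.806 (SD, n = 5; higher in 5 of 5 libraries; exact sign-flip permutation test, two-sided, p = 0.0625, Benjamini-Hochberg 0.0625 over 4 comparisons of composition). With 5 libraries this test cannot go below 0.0625, so it cannot reach 0.05. Double-G sites instead ended most often in A (45.2% ± 0.260, against 35.5% ± 0.666 of members), and sites with A before the methylated base ended in T at 56.7% ± 0.936, close to the members. C was the least common base there in all 3 classes, at 8.21% ± 0.321 of members and 15.01% ± 0.788 of double-G sites.

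The first and the fifth base were not independent. T was the fifth base of 59.95% of T-led and 54.4% of A-led sites on average, a difference of 5.58 percentage points ± 1.11 (SD, n = 5; 5 of 5 libraries; exact permutation p = 0.0625, Benjamini-Hochberg 0.0625 over the same 4). It was 8.75 among sites in every list of their cell type. In KO 1 the values were 61.9% of T-led and 54.5% of A-led sites, in KO 2 59.0% and 53.1%, and in WT 58.6% and 53.7%. Seen the other way, A led 62.5% of KO 1 members with T at the fifth base, 68.4% of those with A and 73.7% of those with C. In WT those shares were 61.8%, 65.9% and 68.6%.

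**Figure D2:**
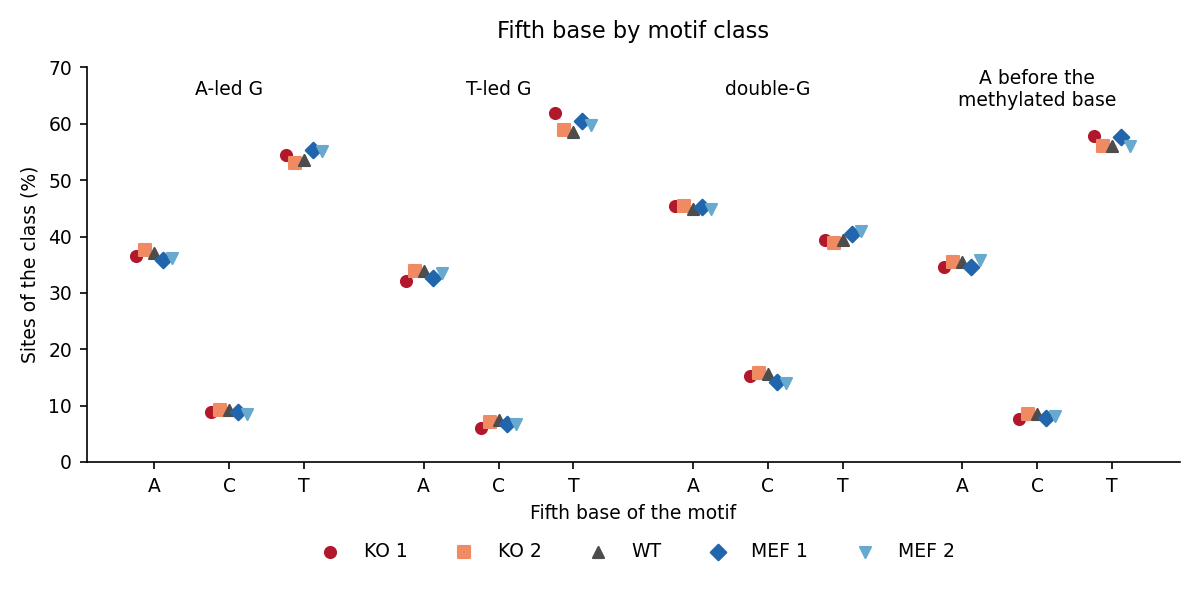
Percent of sites of each motif class by the fifth base, 1 point per library, axis starting at 0, no error bars. In A-led, T-led and A-before-the-methylated-base sites T is the commonest base there (53.1% to 61.9%), whereas in double-G sites A is (44.9% to 45.4%).

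Composition moved with read number and with the number of substituted reads. Among members with at least 100 reads, T was the fifth base of 65.6% on average, against 47.4% of members with under 20 reads, a difference of 18.2 percentage points ± 1.37 (SD, n = 5; 5 of 5; exact permutation p = 0.0625). The libraries gave 66.7% against 47.6% in KO 1, 63.1% against 47.0% in KO 2, 65.9% against 47.8% in WT, 65.6% against 47.6% in MEF 1 and 66.8% against 47.1% in MEF 2. Members ending in T had a median of 39 reads in WT to 53 in KO 2, and those ending in A a median of 26 to 35.

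Leading A became commoner as substituted reads increased. A led 73.0% of members with 10 or more substituted reads and 62.4% of members with 2, a difference of 10.7 percentage points ± 1.03 (SD, n = 5; 5 of 5; exact permutation p = 0.0625, Benjamini-Hochberg 0.0625 over 4). In KO 1 the shares were 73.4% and 63.4%, in KO 2 72.2% and 62.7%, and in WT 71.9% and 60.4%. Among sites in every list of their cell type the difference was 1.54 percentage points (higher in 4 of 5 libraries). Sites with 2 substituted reads also had few reads (at most 28), whose part was not tested. With reads alone the order was different: at 200 or more reads A led 60.7% of KO 1, 61.0% of KO 2 and 58.4% of WT members, below its share over all members in each of the 3.

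The double-G part of each list grew with substituted reads, whereas the members' part changed little in the HEK293T lists and was lower in the MEF lists. Members were 31.0% of KO 1, 30.8% of KO 2 and 31.6% of WT sites with 2 substituted reads, and 30.5%, 30.3% and 30.9% of those with 10 or more. Double-G sites were 30.2%, 30.0% and 30.0% with 2 and 42.3%, 42.1% and 42.8% with 10 or more. In MEF 1 and MEF 2 members were 32.1% and 33.1% of sites with 2, and 30.4% and 29.997% of those with 10 or more. Within the members, T-led sites fell to 8.11%, 8.40% and 8.68% of list entries with 10 or more substituted reads, against 11.4%, 11.5% and 12.5% with 2, and A-led sites moved the other way (22.4%, 21.9% and 22.2% against 19.7%, 19.3% and 19.04%).

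Members carried a lower substitution share than double-G sites in every library. Pooled over all reads, the share was 6.87% in members and 7.69% in double-G sites of KO 1, 6.47% and 7.26% in KO 2, 7.09% and 7.73% in WT, 6.96% and 7.68% in MEF 1, and 6.83% and 7.54% in MEF 2. The difference was -0.736 percentage points ± 0.0687 (SD, n = 5; lower in 5 of 5 libraries; exact sign-flip permutation test, two-sided, p = 0.0625, Benjamini-Hochberg 0.0714 over 8 contrasts of the share), and -0.408 as a median over sites. The fifth base was not matched in this difference. Ending in T, members had 6.62% and double-G sites 6.82% in KO 1, 6.80% and 6.88% in WT, and 6.82% and 6.89% in MEF 1. Ending in A they lay further apart, at 7.45% and 8.78% in KO 1, 7.78% and 8.78% in WT, and 7.47% and 8.82% in MEF 1. For all members against sites with A before the methylated base, the direction depended on the measure. The pooled difference was 0.0333 ± 0.0860 (3 of 5 libraries positive, exact permutation p = 0.4375), and -0.0201 in the MEF libraries alone. It was 0.262 at sites with at least 50 reads, 0.290 with at least 5 substituted reads, 0.186 at sites in every list and 0.153 with equal read bins, each positive in 5 of 5 libraries, and -0.400 as a median over sites, negative in 5 of 5 (exact permutation p = 0.0625 each).

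A-led sites accounted for the higher shares within the set. The pooled share was 7.26% in A-led and 6.17% in T-led sites of KO 1, 6.90% and 5.72% in KO 2, 7.50% and 6.37% in WT, 7.35% and 6.23% in MEF 1, and 7.24% and 6.10% in MEF 2. A-led sites thus lay above T-led sites by 1.13 percentage points ± 0.0311 (SD, n = 5; 5 of 5; exact permutation p = 0.0625, Benjamini-Hochberg 0.0714 over 8). The fifth base was not matched in this. As a median over sites the difference was 0.654. A-led sites still lay below double-G sites by -0.330 ± 0.0746 (lower in 5 of 5; exact permutation p = 0.0625). As a median over sites this was -0.182, with no difference in at least 1 library (exact permutation p = 0.25). The fifth base was not matched here either. Among sites ending in T, A-led sites lay above double-G sites in each library. The pooled shares were 6.98% against 6.82% in KO 1, 6.67% against 6.48% in KO 2 and 7.20% against 6.88% in WT. In MEF 1 they were 7.24% against 6.89%, and in MEF 2 7.05% against 6.81%. Among sites ending in A or C, A-led sites lay below, as with A in KO 1 (7.93% against 8.78%). T-led sites lay below the sites with A before the methylated base by -0.693 ± 0.0798 (lower in 5 of 5; exact permutation p = 0.0625), and by -0.392 with equal read bins and -0.459 at sites with at least 50 reads.

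The share also differed by the fifth base, by amounts that depended on reads. Members ending in T had a pooled share of 6.62% ± 0.218, those ending in A 7.44% ± 0.288 and those ending in C 6.20% ± 0.338 (SD, n = 5). The difference of T minus A was -0.814 percentage points ± 0.136 (lower in 5 of 5; exact permutation p = 0.0625), but with 5 bins of read number weighted equally it was -0.111 ± 0.138 (lower in 4 of 5; exact permutation p = 0.1875), and at sites with at least 50 reads -0.116. It was -0.527 with at least 5 substituted reads and -1.91 as a median over sites. In double-G sites the same contrast was -1.89 ± 0.0574 and kept -1.10 with equal bins (lower in 5 of 5 each; exact permutation p = 0.0625). T minus C was 0.420 ± 0.292 over all reads and 1.14 ± 0.175 with equal bins (higher in 5 of 5 each; exact permutation p = 0.0625), yet -1.33 as a median over sites. It was 1.35 at sites with at least 50 reads, 1.48 with at least 5 substituted reads, 0.704 at sites in every list of their cell type, 0.231 in the HEK293T libraries alone and 0.703 in the MEF libraries alone. Members ending in C had the fewest reads, with a median of 21 to 28.

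Per motif, AGACA had the highest pooled share, at 7.93% in KO 1, 7.54% in KO 2, 8.36% in WT, 7.86% in MEF 1 and 7.89% in MEF 2. AGACT had 6.98%, 6.67%, 7.20%, 7.24% and 7.05%, and TGACT 6.02%, 5.64%, 6.17%, 6.08% and 5.89%. AGACA led in all 5 libraries, and TGACT lay below AGACT in all 5. With C at the fifth base, TGACC lay above AGACC in WT (6.89% against 6.43%) and below it in the other libraries. The 2 motifs ending in C rested on the fewest reads, as few as 12459 for TGACC in KO 1. TGACC had the widest spread of the 6 motifs between libraries, with 5.44% in MEF 2 and 6.89% in WT as its ends.

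**Figure D3:**
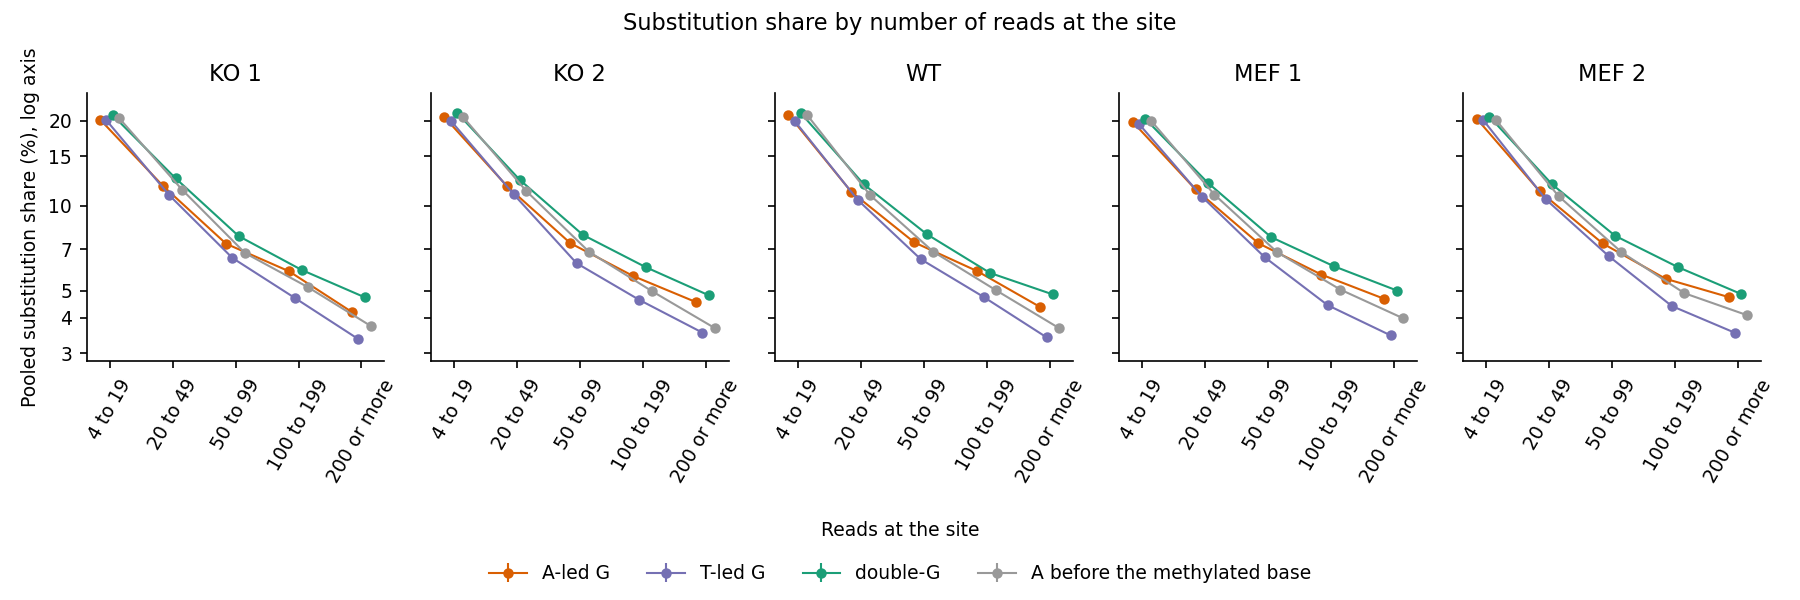
Pooled substitution share (percent, log axis) against reads at the site in 5 bins, 1 panel per library and 1 line per motif class; bars are exact 95% binomial intervals and are mostly smaller than the points. All lines fall from about 20% to between 3% and 5%, and in the bin of 200 or more reads T-led sites are the lowest and double-G sites the highest of the 4 classes in each panel.

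The share fell with reads in every class, and the minimum of 2 substituted reads keeps it at or above 10.5% under 20 reads. In members it was 20.1% at 4 to 19 reads and 3.87% at 200 or more in KO 1, 20.4% and 4.16% in KO 2, 20.6% and 3.97% in WT, 19.7% and 4.22% in MEF 1, and 20.3% and 4.28% in MEF 2. The order of A-led over T-led sites was visible in the deepest bin as well. At 200 or more reads A-led sites had 4.19% and T-led sites 3.36% in KO 1, 4.55% and 3.54% in KO 2, 4.37% and 3.41% in WT, 4.67% and 3.46% in MEF 1, and 4.74% and 3.54% in MEF 2. With the 5 bins weighted equally the A-led excess was 0.847 ± 0.0799 percentage points (5 of 5; exact permutation p = 0.0625).

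Fewer than 1 member in 2 recurred in another list of the same cells, and recurrence followed the substituted reads. Of the KO 1 members 39.4% were also in the WT list, and of the KO 2 members 37.6%. Of the WT members 36.7% were in KO 1 and 40.8% in KO 2. Between the 2 knockout lists, 36.5% of KO 2 members were in KO 1 and 42.6% of KO 1 members in KO 2, so KO 1 shared more with KO 2 than with WT, and KO 2 less with KO 1 than with WT. The lists differ in size, which bears on each of these shares. MEF 2 members were in MEF 1 at 39.5%, and MEF 1 members in MEF 2 at 41.2%. Sites of all motifs recurred at 40.1% for KO 1 in WT, 38.9% for KO 2 in WT, 37.4% and 42.4% for WT in KO 1 and KO 2, 37.6% for KO 2 in KO 1, 43.9% for KO 1 in KO 2, 41.5% for MEF 2 in MEF 1 and 42.97% for MEF 1 in MEF 2. The members thus lay a little below all sites in each of the 8 pairings.

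A-led sites recurred more often than T-led sites and less often than double-G sites. Of KO 1 sites, 41.8% of A-led, 34.9% of T-led and 45.9% of double-G sites were in the WT list. Of KO 2 sites it was 39.9%, 33.5% and 44.9%. Their counting intervals did not overlap, as for T-led sites in KO 1 (33.5% to 36.4%) and A-led sites there (40.7% to 42.9%). The fifth base split recurrence further: 46.2% of AGACT, 39.8% of AGACA and 22.8% of AGACC sites of KO 1 were in WT, against 39.2% of TGACT, 31.7% of TGACA and 9.06% of TGACC sites. Median read numbers also differed by the fifth base (highest for T, lowest for C), and their part in this was not tested.

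Among strongly substituted members nearly all recurred, as among sites of all motifs. With 10 or more substituted reads, 906 of 988 KO 1 members (91.7%) and 1329 of 1484 KO 2 members (89.6%) were in the WT list, and 923 and 957 of 1011 WT members were in KO 1 and KO 2 (91.3% and 94.7%). With 2 substituted reads the shares were 11.4% of KO 1 and 10.1% of KO 2 members in WT. Sites of all motifs gave 91.9% and 89.99% at 10 or more and 12.2% and 10.97% at 2 for KO 1 and KO 2 in WT, and 91.1% and 94.96% of WT sites with 10 or more in KO 1 and KO 2. At 10 or more, 93.2% of A-led, 87.5% of T-led and 93.3% of double-G sites of KO 1 were in WT, and 90.7%, 86.7% and 91.2% of those of KO 2. A-led and double-G intervals overlapped, whereas those of T-led sites (82.8% to 91.2% in KO 1, 83.0% to 89.8% in KO 2) lay below those of double-G sites (91.8% to 94.6%, 89.9% to 92.4%). The same held for WT sites in KO 2 (87.3% to 94.2%, against 94.5% to 96.7%). In the other pairings T-led and double-G intervals overlapped, as for WT sites in KO 1 (85.3% to 92.8%, against 90.8% to 93.7%). Of MEF 2 sites in MEF 1, T-led sites were the highest, at 95.9%, against 95.1% of A-led and 94.8% of double-G sites.

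**Figure D4:**
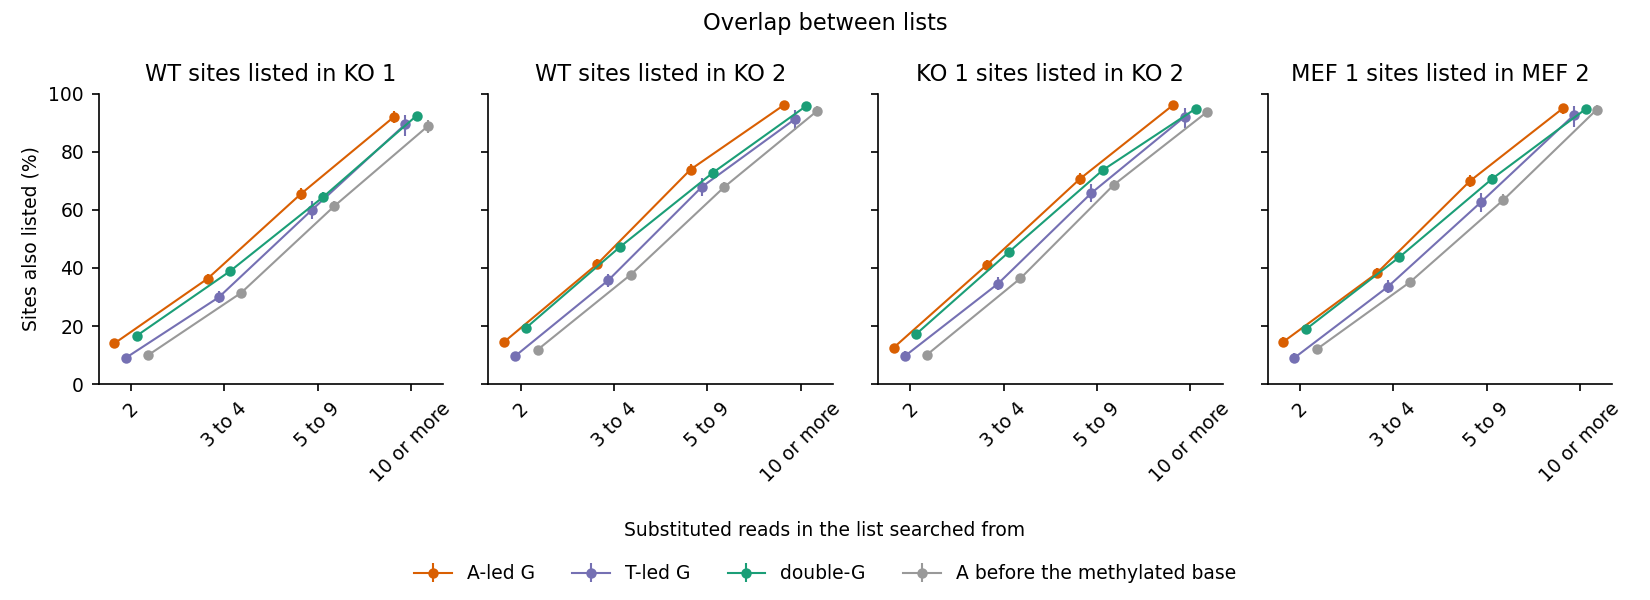
Percent of sites of one list also present in a second list (axis starting at 0), by substituted reads in the list searched from, for 4 pairs of lists and 4 motif classes; bars are exact 95% binomial intervals. Recurrence is between 9.03% and 19.5% at 2 substituted reads and between 88.7% and 96.1% at 10 or more, and T-led sites lie below A-led sites in every bin drawn.

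Over the 3 HEK293T lists together there were 28611 distinct member positions, of which 3463 (12.1%, interval 11.7% to 12.5%) were in all 3 lists and 19559 (68.4%) in 1 list. All 3 lists held 13.6% of A-led, 9.53% of T-led, 16.3% of double-G positions and 10.2% of positions with A before the methylated base. The members in all 3 had a median of 96 reads in KO 1, 118 in KO 2 and 94 in WT, and a pooled share of 6.06% and 5.99% in KO 1 and KO 2, against 6.20% in WT. In mouse cells 4894 of 19366 member positions (25.3%) were in both MEF lists, with 27.8% of A-led and 20.8% of T-led positions.

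No member site differed between KO and WT at an adjusted p under 0.05. Sites present in both lists with at least 20 reads in each were compared by Fisher's exact test, adjusted by Benjamini-Hochberg over sites of all motifs. Of 4316 members tested between KO 1 and WT, 0 were called, where 0% of all 13894 sites were called. Of 4869 tested between KO 2 and WT, 0 were called, where 0% of 15955 were. The same comparison gave 0 of 4771 members between KO 2 and KO 1 and 0 of 4317 between MEF 2 and MEF 1, again with 0% called over all sites. At an unadjusted p under 0.05 there were 126 members between KO 1 and WT (2.92%, where 3.12% of all sites passed), 172 between KO 2 and WT (3.53%, against 3.35%), 163 between KO 2 and KO 1 (3.42%, against 3.23%) and 113 between MEF 2 and MEF 1 (2.62%, against 2.46%). The members thus passed at about the rate of all sites, and the KO and WT pairs at about the rate of the 2 libraries of 1 genotype. A site that left a list altogether is not in this test.

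At the members tested, the pooled share was 5.95% in KO 1 against 6.06% in WT, and 5.84% in KO 2 against 6.09% in WT. The median log2 ratio was -0.03 for KO 1 over WT and -0.09 for KO 2 over WT, where all sites gave -0.00 and -0.07, and between KO 2 and KO 1 it was -0.07 in members and -0.08 in all sites. The shift of KO 2 over WT in members was thus of about the size seen between the 2 knockout libraries. The smallest p between KO 1 and WT belonged to a T-led site in XIST, the noncoding RNA of X inactivation, at chrX:73852678 on the minus strand. This site lies inside a deposited putative m6Am region, a kind taken up below. It had 42 of 794 reads substituted in KO 1 and 26 of 555 in KO 2, against 36 of 1891 in WT, and did not pass (Fisher's exact test, adjusted p = 0.0898). An A-led site in TSHZ1, a zinc-finger gene, named after its values were seen, had the smallest p between KO 2 and WT: 6 of 42 reads in KO 1 and 5 of 77 in KO 2, against 19 of 50 in WT (Fisher's exact test for KO 2, adjusted p = 0.236).

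Single sites show the range that the class averages hide. The A-led site with the most substituted reads in WT, an AGACT at chr19:3976467 (minus strand) in EEF2, the elongation factor that moves the ribosome along mRNA, had 87 of 2686 reads substituted in KO 1 (3.24%) and 94 of 2721 in KO 2 (3.45%), against 87 of 2430 in WT (3.58%). All 3 intervals overlapped. An AGACT at chr20:32433565 in ASXL1, a chromatin regulator, had 36 of 133 (27.1%) in KO 1 and 92 of 204 (45.1%) in KO 2, against 48 of 127 (37.8%) in WT. The KO 1 interval (19.7% to 35.5%) lay below that of KO 2 (38.1% to 52.2%). WT fell between the knockouts there, as it did for the AGACA at chr10:75399647 in the zinc-finger gene ZNF503 (11.7% in KO 1 and 19.6% in KO 2, against 18.6% in WT). In HNRNPF, a splicing regulator, the AGACA at chr10:43387663 had 12.0% in KO 1 and 9.57% in KO 2, against 9.69% in WT.

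The other A-led sites of the 10 lay in genes of varied function. The site in DDX56, a nucleolar RNA helicase, had 14.2% in KO 1 and 19.5% in KO 2, against 23.0% in WT, and the site in PPIF, the mitochondrial cyclophilin, 13.6% and 14.1%, against 16.5% in WT. Their intervals overlapped between WT and each knockout. The site in SLC25A5, a mitochondrial ADP/ATP carrier, had 10.7% in KO 1 and 10.5% in KO 2, against 9.41% in WT, and the AGACC in IRS4, an insulin receptor substrate typical of HEK293 cells, 9.51% and 9.26%, against 9.93% in WT. The shares at the A-led site in XIST were 3.79% and 4.10% in KO 1 and KO 2, against 4.50% in WT, and those in ZNF703, a zinc-finger gene, 2.64% and 3.65%, against 3.98% in WT.

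Among T-led sites the one with the most substituted reads in WT was a TGACT at chr13:45337260 (minus strand) in TPT1, the translationally controlled tumour protein gene. It had 120 of 2001 reads in KO 1 (6.00%) and 81 of 1730 in KO 2 (4.68%), against 94 of 1307 in WT (7.19%). The KO 2 interval (3.74% to 5.79%) lay below that of WT (5.85% to 8.73%), and that of KO 1 overlapped both. A TGACA at chr3:184321573 in EIF4G1, the scaffold of the cap-binding initiation complex, had 28 of 277 (10.1%) in KO 1 and 67 of 391 (17.1%) in KO 2, against 52 of 315 (16.5%) in WT. TRMT10C, which encodes a subunit of mitochondrial RNase P, had the highest share of the T-led sites named, at 23.5% in KO 1 and 23.2% in KO 2, against 25.2% in WT, all within each other's intervals.

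The sites in FEN1, a flap endonuclease of DNA replication, and in the noncoding FGD5-AS1 were also level, at 11.1% and 10.7% in KO 1 and KO 2, against 11.8% in WT, and at 14.4% and 14.3%, against 15.7% in WT. The site in MCM5, a subunit of the replicative helicase, had 4.08% in KO 1 and 5.67% in KO 2, against 8.35% in WT, the site in BRD2, a reader of acetylated histones, 4.17% and 4.21%, against 5.85%, and the site in GRWD1, a ribosome assembly factor, 3.41% and 4.90%, against 7.09%. The T-led site in IRS4 had 2.13% and 1.86%, against 1.86% in WT. All 20 sites were in both KO lists. WT was above both knockouts at 13, below both at 2 and between them at 5, but the sites were chosen for their substituted reads in WT, so this count has a direction built in.

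**Figure D5:**
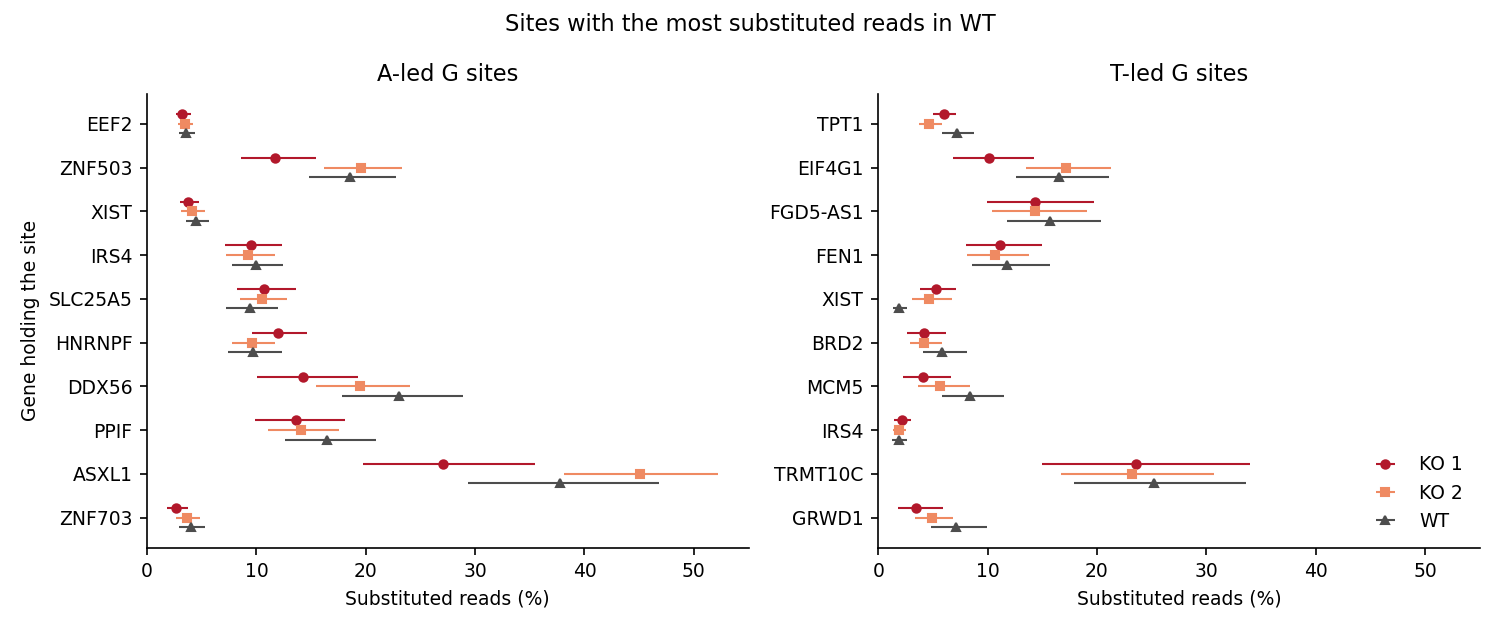
Substitution share in percent (axis starting at 0) of the 10 A-led and the 10 T-led sites with the most substituted reads in WT, in KO 1, KO 2 and WT; bars are exact 95% binomial intervals. ASXL1 is highest on the left (27.1% to 45.1%) and TRMT10C on the right (23.2% to 25.2%), and most sites have overlapping intervals in the 3 libraries.

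Member sites were spread over many genes. In KO 1 they fell in 5308 genes, in KO 2 in 5803 and in WT in 5603, which is 62.2%, 65.0% and 63.4% of the genes with a site of any motif (8536, 8921 and 8831). Sites were assigned to RefSeq GRCh38.p14 gene spans, and whether they lie in exons, introns or untranslated parts was not analysed here. Counts by gene, here and below, leave out sites that lie in several gene spans. Of the members 85.8% in KO 1, 86.2% in KO 2 and 86.4% in WT lay in exactly 1 gene, and of these 96.9%, 97.1% and 96.8% in a protein-coding one. Where the gene's strand was known the site was on it in 98.4%, 98.7% and 98.7% of cases. About 1 gene in 2 held a single member site (52.5% in KO 1, 48.4% in KO 2 and 49.8% in WT), and the most in any gene was 26, 35 and 32.

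The genes with the most member entries over the 3 HEK293T lists were mostly those of large nuclear proteins. MKI67, the Ki-67 protein of dividing cells, had 19 members in KO 1 and 35 in KO 2, against 32 in WT. SPEN, a transcriptional corepressor that binds RNA, had 26 and 29, against 23 in WT, and SON, a nuclear speckle protein, 21 and 25, against 24 in WT. IRS4 had 22 and 23, against 24, with 18 of its 30 positions in all 3 lists, more than in any other gene named here. NSD1, a histone H3 methyltransferase, had 22 and 21, against 21, of which 17 and 16 in KO 1 and KO 2, and 17 in WT, were A-led.

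Others of the 10 were the noncoding RNA TUG1 (16 and 20 in KO 1 and KO 2, against 20 in WT), CENPF, a kinetochore protein (16 and 18, against 16), SRCAP, a chromatin remodeller (15 and 20, against 15), and SRRM2, a splicing scaffold (10 and 18, against 13). The pooled share of the members was 6.78% in KO 1 and 5.62% in KO 2, against 7.31% in WT, for MKI67, and 3.40% and 3.58%, against 3.33% in WT, for IRS4. A count of sites per gene grows with transcript length and with reads, so these counts do not rank genes by density.

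In genes of the m6A machinery itself, 16 writer, eraser and subunit genes held 33 members in KO 1 and 42 in KO 2, against 29 in WT, or 38.8% and 35.9% of their sites, against 26.6%. The intervals were wide (28.4% to 50.01% in KO 1, 18.6% to 35.9% in WT) and included the share over all sites in each library. ZC3H13, a subunit that holds the writer complex in the nucleus, had 7 members in KO 1 and 8 in KO 2, against 5 in WT. RBM15 and RBM15B, which recruit the complex to RNA, had 5 and 7, against 7, and 5 and 8, against 6, and VIRMA, its largest subunit, 5 and 8, against 6. METTL3 had 1 in each list, METTL14 4 and 4, against 3 in WT, and WTAP, METTL16 and PCIF1 had 0 in each list. WTAP had no site of any motif counted by gene, so its 0 says nothing about its motifs. METTL16 had 5 and 7 sites of any motif in KO 1 and KO 2, against 9 in WT, and PCIF1 1 and 1, against 2. In the 12 reader genes members were 24.1% and 24.8% of sites in KO 1 and KO 2, against 26% in WT, led by YTHDF2 (6 and 4, against 6), which promotes decay of methylated mRNA, and YTHDC1 (5 and 3, against 4), the nuclear reader.

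Readers and the 4 other gene groups had, in each HEK293T library, intervals that included the share over all sites. Members were 32.6% and 28.7% of sites in 20 histone lysine methyltransferase genes in KO 1 and KO 2, against 33.8% in WT, with KMT2A (11 and 11, against 8) and KMT2D (8 and 11, against 11) after NSD1. In 24 early response and stress transcription factor genes they were 23.7% and 23.4%, against 25.5%, with JUN at 10 and 11, against 10 in WT. In 76 cytosolic ribosomal protein genes they were 32.2% and 32.9%, against 38.4%, at low pooled shares of 3.47% and 2.94%, against 3.32% in WT, and in 67 oxidative phosphorylation genes 34.4% and 30.4%, against 31.0%. As a check of the cells, IRS4 carried members in every HEK293T list. Members fell in 1 and 1 of 14 fibroblast marker genes in KO 1 and KO 2, against 3 in WT. They fell in 0 and 1 of 11 blood and endothelial marker genes, against 0 in WT. These lists hold sites, not RNA levels.

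Few members lay in putative m6Am regions. The authors deposited 2360 putative m6Am regions. Nothing used here says how they were picked, and the WT library's label names the list, so WT may have entered the choice. Members inside them numbered 10 (0.0788%) in KO 1 and 12 (0.0811%) in KO 2, against 26 (0.191%) in WT, with intervals of 0.0378% to 0.145% and 0.0419% to 0.142%, against 0.125% to 0.279%. The KO 1 interval overlapped that of WT, as did that of KO 2. All sites together gave 37 and 45, against 101 (0.0908% and 0.0945%, against 0.231% in WT), which ran the same way. For all sites the intervals of KO 1 (0.0639% to 0.125%) and KO 2 (0.0689% to 0.126%) lay below that of WT (0.188% to 0.281%). The 43 member positions inside regions comprised 17 listed in KO alone, 23 in WT alone and 3 in both. The T-led XIST site named above was in all 3 HEK293T lists. The same split over sites of all motifs was not made, and 68.4% of all HEK293T member positions were in 1 list. The split is therefore no result about members.

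The ZRANB2 and MED24 sequences printed above hold positions inside regions that were listed in WT alone. The listed base of the first lies 5 nt from the RefSeq start of ZRANB2, a splicing-related zinc-finger gene, at chr1:71081030, and 29 of 86 reads were substituted in WT (33.7%), whereas it was in neither KO list. It had the most substituted reads of the 24 WT members, out of 1011 with 10 or more, that neither KO list held (2.37%, where 2.2% of 3273 WT sites of all motifs with 10 or more were in neither). Of these 24, 11 were A-led and 13 T-led, and 1, in ZRANB2, was in a region. The MED24 position, in a gene of a Mediator subunit, rested on 3 of 26 reads in WT. A position absent from a list has no count there, so no fold is given.

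The 6 member motifs are common in promoters at large. Both strands were searched. AGACA, read as TGTCT on the other strand, was present in 42.5% of 35116 windows of the same RefSeq table. AGACC, read as GGTCT, was in 39.6%, and AGACT, read as AGTCT, in 37.1%. TGACA, read as TGTCA, was in 38.9%, TGACC, read as GGTCA, in 37.4%, and TGACT, read as AGTCA, in 38.3%. The double-G motif GGACT, read as AGTCC, was in 44.2%. A match describes the letters of a window and no site.

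In mouse fibroblasts the members with the most substituted reads had overlapping intervals in the 2 libraries. Positions are on mm10 and mouse genes are not named here. The A-led site with the most substituted reads, an AGACT at chr2:118113412, had 122 of 1241 reads in MEF 2 (9.83%) and 102 of 1004 in MEF 1 (10.2%), and an AGACT at chr10:56388323 had 15.4% in MEF 2 and 15.8% in MEF 1. An AGACA at chr6:91234247 had 6.34% and 5.87% in MEF 2 and MEF 1, an AGACT at chr10:84527682 11.03% and 10.8%, and an AGACT at chr10:81182140 5.30% and 4.72%. All 5 pairs had overlapping intervals.

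The 5 T-led mouse sites behaved alike. The TGACA at chr1:71602458 had the highest share, with 55 of 212 reads in MEF 2 (25.9%) and 49 of 195 in MEF 1 (25.1%). The TGACT at chr4:64017372 had 5.57% in MEF 2 and 7.48% in MEF 1, that at chr4:57893234 9.81% and 10.5%, that at chr8:45051591 10.03% and 12.4%, and that at chrX:167207385 4.61% and 4.18%. Their intervals overlapped between the libraries in each case.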

How the data were processed

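miCLIP was measured in 5 libraries: KO 1, KO 2 and WT of HEK293T, and MEF 1 and MEF 2. The authors deposited 1 list of DRACH positions per library. Per the file headers and values, each entry holds a whole-number count of substituted reads, and a name with that count, the count of reads at the position and the motif. A deposited list of m6Am regions, whose column holds a score not used here, gave coordinates only. The submitters' processing notes name BWA (0.7.17), deepTools, STAR and bedtools, and mm10, hg38 and GRCh38 as builds, with no role. Which of them aligned the reads, and how positions were called and filtered, is not given in the sources used.

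The substitution share was the substituted count over the read count, pooled over sites. The written design swapped the letters for these 2 counts, and the test was run as substituted over all reads. Motif classes were compared within each library by an exact two-sided sign-flip permutation test over 5 libraries. Single sites were compared between 2 libraries by Fisher's exact test with at least 20 reads in each and Benjamini-Hochberg adjustment over all sites. Overlap needed the same position and strand. Exact 95% binomial intervals were used. Python 3.11.15, pandas 2.3.3 and scipy 1.17.1 were used. Fisher's exact test was tried on simulated counts, and the sign-flip test on a few fixed differences. Named sites are the 10 A-led and 10 T-led sites with the most substituted reads in WT in exactly 1 gene span, the 10 genes with the most member entries over the 3 HEK293T lists, up to 4 genes a list, and the 5 A-led and 5 T-led mouse sites with the most substituted reads. The members and lists were chosen with earlier results of these data known, and a p-value here reflects nothing beyond variation among these libraries, possibly technical. The comparisons with sites carrying A before the methylated base, A-led against double-G, the fifth base within double-G, the 4 comparisons of composition and the weighting of read bins were chosen after seeing the data. Motif letters from human chromosome 8 and 1 of the 10 genes are not reported here.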

Additional observations from a re-analysis of the deposited data

How the results depend on the processing

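The 4 planned contrasts of the substitution share kept their direction in 47 of 48 alternatives (read and substituted-read minimums, median over sites, sites in every list, 1 cell type, equal read bins, each library left out). The exception was T minus C at the fifth base, -1.33 percentage points as a median over sites. With each library left out in turn, members minus double-G ran between -0.759 and -0.715, A-led minus T-led between 1.12 and 1.14, T minus A between -0.855 and -0.772 and T minus C between 0.340 and 0.516. Of 76 alternatives of the 8 added contrasts, 74 kept their direction; members minus sites with A before the methylated base turned to -0.400 as a median over sites and to -0.0201 in MEF libraries only. The leading-A difference by substituted reads has no value at 50 or more reads, where no listed site has 2. The cause was not tested.

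Stricter minimums moved the descriptive shares. Members were 32.2% of sites with at least 50 reads and 30.9% with at least 5 substituted reads. A led 68.9% of members with at least 5 substituted reads. T was the fifth base of 63.5% with at least 50 reads and 64.3% with at least 5 substituted reads. Overlap with at least 5 substituted reads, and with at least 50 reads, was 71.0% and 64.2% of WT members in KO 1, 77.9% and 71.8% in KO 2, 75.6% and 70.1% of KO 1 members in KO 2, and 74.4% and 66.1% of MEF 1 members in MEF 2. Fisher's exact test called 0 members with at least 10, 20 or 50 reads in both, and unadjusted p under 0.05 gave 126, 172, 163 and 113 in KO 1 against WT, KO 2 against WT, KO 2 against KO 1 and MEF 2 against MEF 1. No paired analysis was possible because there is 1 WT miCLIP library, which carries no replicate number. With 5 libraries no exact p can fall below 0.0625, and sites under 20 reads were not tested singly.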

Other observations

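Members often lay close to other listed sites, and so did the other classes. Another site of any motif was within 50 nt of 27.3% of members in KO 1 and 29.9% in KO 2, against 26.1% in WT. For double-G sites this was 24.5% and 27.4%, against 24.8% in WT. For sites with A before the methylated base it was 26.9% and 29.9%, against 27.5% in WT. A double-G site was within 50 nt of 9.85% and 11.2% of members in KO 1 and KO 2, against 9.31% in WT. Members near a double-G site had a pooled substitution share of 4.72% in KO 1 and 4.61% in KO 2, against 4.75% in WT, and the other members had 7.42% and 6.996%, against 7.67% in WT. Other classes had the same difference: in KO 1 double-G sites had 5.39% near another double-G site and 8.32% elsewhere, and sites with A before the methylated base 4.97% and 7.31%. The nearby members also had more reads (median 87 and 106, against 90 in WT) than the others (34 and 37, against 27 in WT), whose part in this was not tested.

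Mitochondrial RNA held few members and fewer double-G sites. Members were 6 of 61 mitochondrial sites in KO 1 and 9 of 75 in KO 2, against 10 of 69 in WT. Over all sites they were 31.1% in KO 1 and 31.1% in KO 2, against 31.2% in WT. Double-G sites were 1 and 4 of the mitochondrial sites, against 1 in WT. The mitochondrial sites with A before the methylated base numbered 54 and 62, against 58 in WT.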
